A study of Mus musculus with 50 samples.

Results

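The 40 mammary gland tumors of mice that had received insulin, glargine, X10 or IGF1 were compared, as 1 set, with the 10 tumors of mice that had received vehicle, to ask which genes moved the same way whichever ligand was injected. All 50 tumors of the series were used: the ligand tumors are every expression column whose name starts with one of the 4 ligands (1 IGF1 column is spelled IFG1), with 10 tumors per ligand, and the control tumors are the 10 columns titled Untreated, which the series' design text calls vehicle exposure. All 5 groups consisted of p53R270H/+WAPCre mice, which carry 1 mutant allele of the tumor suppressor p53 that is switched on where Cre recombinase is made from the whey acidic protein promoter, in mammary epithelium. The female mice entered at 8 weeks of age, were injected subcutaneously every other day until a tumor formed, and were sacrificed 24 h after the last injection, when the tumor measured 1 cm3. For every group the tumors had been picked as EMT-like (epithelial to mesenchymal transition) and as having a latency near the group median, so they do not represent all tumors of a group. Each tumor carries its own number within its group, and nothing else in the labels says that the tumors are from separate mice, so p-values measure the spread between these tumors.

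Insulin acts mainly through the insulin receptor and IGF1 through the IGF1 receptor, and both receptors pass the signal to the PI3K/AKT/mTOR and RAS/ERK pathways, which drive metabolism and growth. Glargine is a long-acting insulin analogue, and X10 is an insulin analogue with a raised affinity for the IGF1 receptor. Genes that such signals touch include FOXO targets, ERK feedback genes and immediate early genes, which react within minutes to hours, whereas the tumors were collected a day after the last dose. A tumor is a mixture of tumor cells, macrophages and other leukocytes, vessels and stroma. In such bulk tissue, fewer cells of a type and less RNA per cell cannot be told apart.

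Expression was given as RPKM (read number divided by the length of the gene and by the size of the library) for 37701 genes, of which the 16733 with a mean of at least 0.5 over the tumors were tested on log2(RPKM + 0.5). This scale understates the change of genes with low values. Library size, recovered from the steps between values, was 37.4 to 51.3 M reads with vehicle and 26.6 to 51.9 M reads with the ligands. Its mean was 39.9 ± 5.74 M reads (SD, n = 40) with the ligands and 44.6 ± 4.77 M reads (SD, n = 10) with vehicle, a difference of -4.66 M reads (p = 0.0226, two-sided permutation test, 100000 resamples). Tumors are named here by group and number as in the labels, the vehicle tumors as Untreated. The numbers run in blocks, from insulin_8 to insulin_37, glargine_47 to glargine_78, X10_95 to X10_120, IGF1_124 to IGF1_160 and Untreated_161 to Untreated_197, so that anything that followed the numbers and the treatment cannot be told apart. The labels name no batch. Of the markers for the EMT-like label, Vim, a mesenchymal filament protein, was at 1094 to 6102 RPKM over the 50 tumors, while Krt8, a luminal keratin, was at 2.39 to 1616 RPKM and was not absent from any tumor.

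In the pooled comparison 4 genes differed, each with all 4 ligand means on the same side of vehicle. The 2 lower genes were Hist1h2ao and Hist1h2ap, which encode histone H2A, a protein of the nucleosome core. The 2 higher genes were F13a1, the A subunit of coagulation factor XIII, which tissue macrophages make, and Mir3473c, a microRNA gene that passed the filter on low values only through the ligand tumors. They are 0.012% of the genes tested in each direction (limma with Benjamini-Hochberg adjustment, adjusted p under 0.05). At an unadjusted p under 0.05, 665 genes (3.97%) were higher and 887 (5.3%) lower with the ligands. The median log2 fold change of all genes tested was 0.0076. All 4 ligand means were above vehicle for 3663 genes (21.9%) and below it for 3188 genes (19.1%), so agreement of the 4 means alone was common. Leaving out 1 vehicle tumor could end the calls, since no gene passed without Untreated_162, Untreated_182 or Untreated_197, only Hist1h2ao and Hist1h2ap passed without Untreated_161, only Hist1h2ao and Mir3473c without Untreated_174, and 12 genes passed without Untreated_186. Hist1h2ap also missed the threshold without Untreated_195, and Mir3473c without Untreated_187. The direction of the 4 genes was kept in each of these fits.

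The replication-dependent histone genes, most of them in clusters on chromosome 13, are transcribed in S phase to pack newly made DNA. Their messages normally end in a stem-loop in place of a poly(A) tail, while the libraries here were made from Poly-A selected RNA, so that the values describe the share of these messages that was captured. Hist1h2ao lies at chr13:21810465-21810944 on the plus strand and Hist1h2ap at chr13:21833026-21833507 on the minus strand (GRCm38, GENCODE M21). The 393 bases of their reading frames are identical, whereas other H2A genes of the cluster differ by a few bases. The following 60 bases, positions 333 to 392 of the frame counted from its first base, are where the lower H2A genes with a frame of this length differed most from Hist1h2ao, and capitals mark the differing bases. They are shown because even here the called pair is identical, so that reads from within the frame fit both genes, and the other genes differ by 1 to 4 bases.
Hist1h2ao: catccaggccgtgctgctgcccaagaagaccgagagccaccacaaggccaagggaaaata
Hist1h2ap: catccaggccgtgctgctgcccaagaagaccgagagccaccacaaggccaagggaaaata
Hist1h2ag: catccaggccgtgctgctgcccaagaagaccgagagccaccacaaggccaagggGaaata
Hist1h2an: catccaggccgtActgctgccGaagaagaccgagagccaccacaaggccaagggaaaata
Hist1h2af: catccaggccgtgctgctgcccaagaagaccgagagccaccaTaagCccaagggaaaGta
Hist1h2ak: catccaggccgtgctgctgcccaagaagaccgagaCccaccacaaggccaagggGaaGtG
The annotated Hist1h2ao and Hist1h2ap transcripts both hold the histone stem-loop behind the frame, shown here with its bases in capitals, as do 18 of the 30 histone genes tested.
Hist1h2ao stem-loop: aaaaaaGGCTCTTTTCAGAGCCatccac
Hist1h2ap stem-loop: aaaaaaGGCTCTTTTCAGAGCCatc

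Hist1h2ao (ENSMUSG00000094248), also named with the comparison, had a mean below vehicle with each ligand, of which only X10 passed the adjusted test on its own (adjusted p = 0.0042, and 0.08 to 0.61 for the others). Its RPKM was 12.6, 23.0 and 38.0 (lowest, median and highest) in the vehicle tumors, 6.17, 9.76 and 13.2 with insulin, 8.62, 10.8 and 19.0 with glargine, 4.71, 7.05 and 12.9 with X10, and 4.85, 14.6 and 25.0 with IGF1. The ranges overlapped, but 27 of the 40 ligand tumors lay below the lowest vehicle tumor, and a share of 20 or more tumors was reached by 0.167% of the genes tested. Each ligand group reached above the lowest vehicle tumor, the IGF1 tumors farthest. The mean was 11.2 ± 4.62 RPKM (SD, n = 40) with the ligands and 23.5 ± 9.06 RPKM (SD, n = 10) with vehicle, and the log2 fold change was -1.04 ± 0.18 (SE, adjusted p = 0.0146). By ligand it was -1.40 ± 0.23 (X10), -1.15 ± 0.23 (insulin), -0.87 ± 0.23 (glargine) and -0.74 ± 0.23 (IGF1). The ligands did not differ from each other past the threshold (adjusted p = 0.356).

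Hist1h2ap (ENSMUSG00000094777) also had a mean below vehicle with each ligand, and X10 alone passed (adjusted p = 0.022). Its RPKM was 7.59, 17.0 and 29.5 (lowest, median and highest) with vehicle and 3.10, 8.10 and 22.3 with the ligands, and 17 of the 40 ligand tumors were below the lowest vehicle tumor, a count whose share over all genes was not determined. The log2 fold change was -0.99 ± 0.19 (SE, adjusted p = 0.0199), between -0.68 ± 0.24 for IGF1 and -1.24 ± 0.24 for insulin. The reads behind these values numbered 72 to 765 per tumor for Hist1h2ao and 61 to 608 for Hist1h2ap. Both calls ended without the insulin, the glargine or the X10 tumors, and with the leukocyte and macrophage score as a covariate, while their log2 fold changes stayed between -0.91 and -1.10 in these fits.

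**Figure D1:**
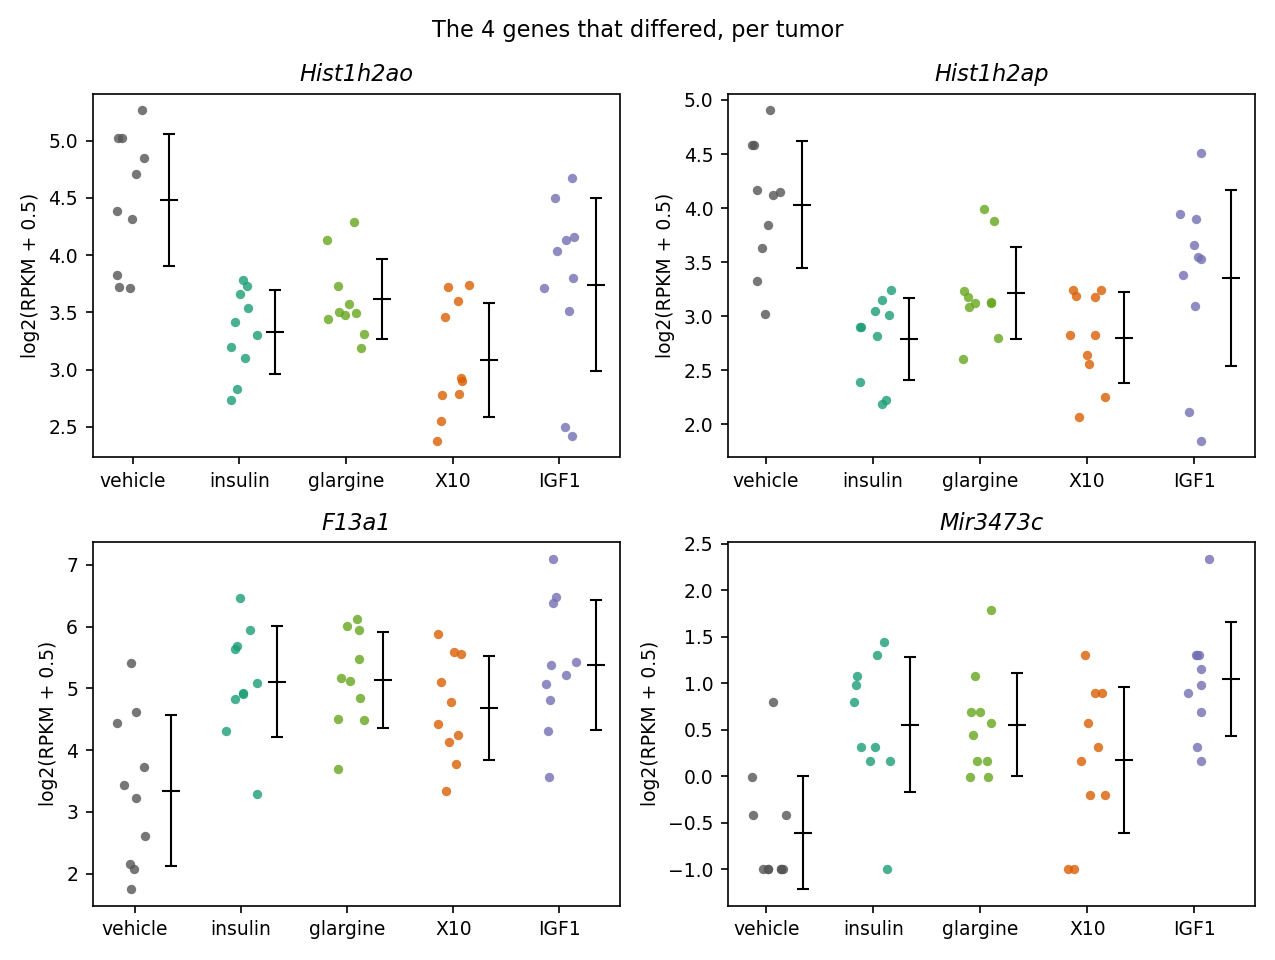
Expression of the 4 genes that differed, as log2(RPKM + 0.5) on the y axis, in each tumor (points) of the 5 groups (x axis), with the mean and SD of each group of 10 tumors beside the points. The vehicle points lie highest for Hist1h2ao and Hist1h2ap and lowest for F13a1 and Mir3473c, and the ranges of vehicle and ligand tumors overlap in all 4 panels.

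Of 69 replication-dependent histone genes listed, 30 passed the filter on mean RPKM, and 27 of these had a negative log2 fold change, with a median of -0.19 (-0.087 without Untreated_187). The 2 genes above were called, and 8 of 30 were lower at an unadjusted p under 0.05, against 5.3% of all genes. All 8 belong to the H2A genes of the chromosome 13 clusters, of which 13 were tested and all 13 were negative (-0.044 to -1.04). The 6 beside the called pair were Hist1h2ag at -0.46 ± 0.17, Hist1h2an at -0.45 ± 0.16, and Hist1h2af, Hist1h2aj (annotated as an unprocessed pseudogene), Hist1h2ah and Hist1h2ak between -0.40 and -0.32 (adjusted p between 0.344 and 0.527), none of which passed the adjusted test. Their levels were low, as in Hist1h2an with a mean of 0.944 ± 0.518 RPKM in vehicle and 0.536 ± 0.307 RPKM in ligand tumors. For the other classes, no gene reached an unadjusted p under 0.05 among 8 H2B genes (median -0.14), 4 H4 genes (median -0.17), 2 H1 genes and 1 H3 gene. Hist1h2bc, an H2B gene with a median of 32.2 RPKM with vehicle and 36.2 RPKM with the ligands, had a log2 fold change of -0.052 ± 0.24.

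**Figure D2:**
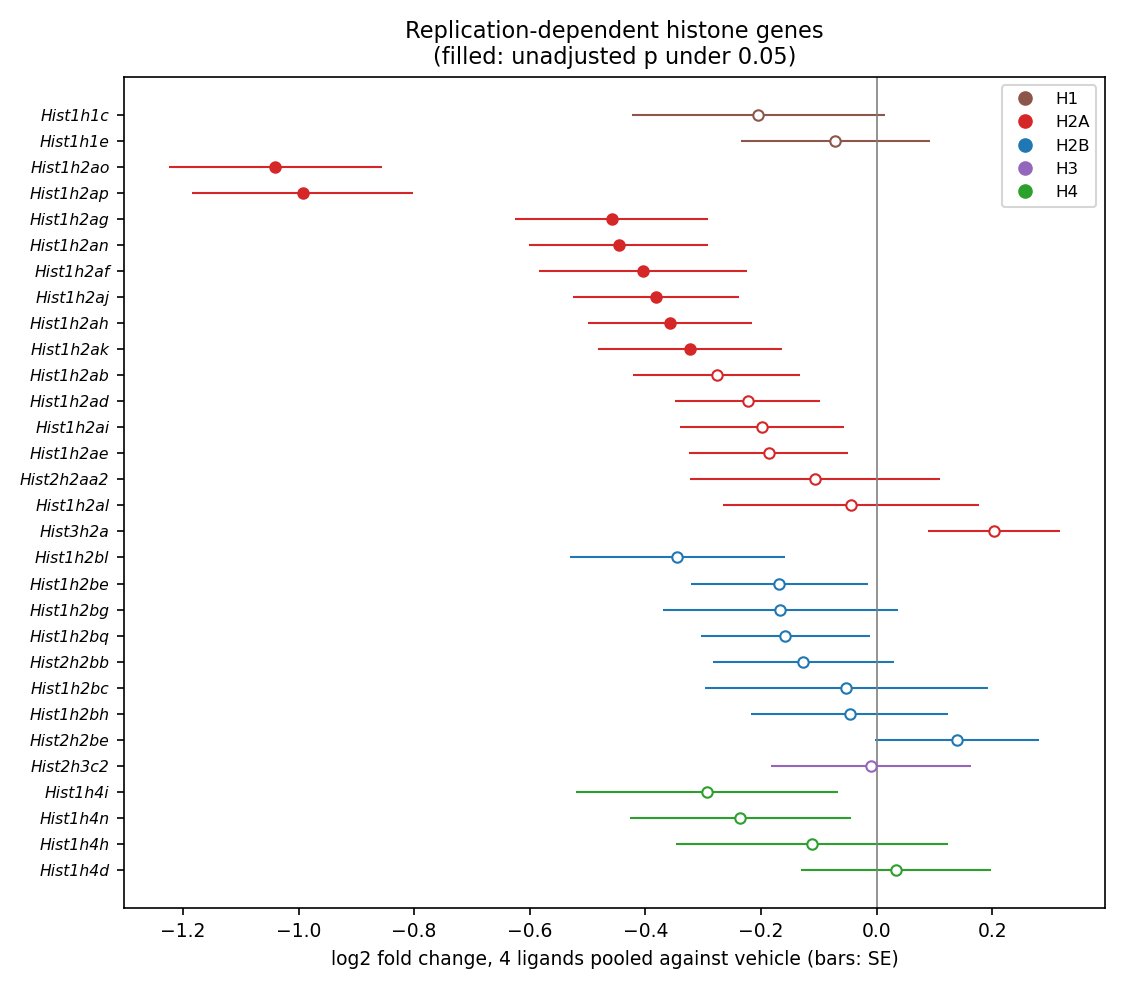
Log2 fold change of the 4 ligands pooled against vehicle (x axis, bars are the SE) of the 30 replication-dependent histone genes tested (y axis), colored by histone class and filled where the unadjusted p was under 0.05. The 8 filled points are H2A genes, with Hist1h2ao and Hist1h2ap apart from the others at -1.04 and -0.99.

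Other genes of DNA replication were examined beside the histones. Of 26 S phase genes, 3 were lower at an unadjusted p under 0.05, 22 were negative and the median was -0.085, where 5.3% of all genes were lower at that p and 8052 of 16733 were negative. The smallest p was that of Cdt1, which licenses replication origins, with -0.30 ± 0.10 (adjusted p = 0.329). None of 20 G2/M genes reached an unadjusted p under 0.05, and Mki67, a proliferation marker, had 0.30 ± 0.16. Of 11 tested genes for histone mRNA processing, such as Ncbp1 of the cap-binding complex (0.15 ± 0.11), and of 11 histone variants whose messages carry a poly(A) tail, such as H3f3b (-0.17 ± 0.10), 0 reached it (limma, also 0 after adjustment).

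The Id proteins bind and block basic helix-loop-helix factors and keep cells undifferentiated, and Id1 and Id3 are classical early targets of BMP signaling through SMAD1/5. Id3 (ENSMUSG00000007872) was named with the comparison and was the gene with the seventh smallest p. Its RPKM was 93.0, 157.6 and 351 (lowest, median and highest) with vehicle, 43.0, 89.7 and 119 with insulin, 79.3, 103 and 141 with glargine, 42.4, 58.7 and 252 with X10, and 48.0, 94.8 and 241 with IGF1. In all, 23 of the 40 ligand tumors were below the lowest vehicle tumor (20 or more in 0.167% of the genes tested), and a single X10 tumor, X10_105, reached 252 RPKM where the next X10 tumor had 68.5 RPKM. The log2 fold change was -0.99 ± 0.21 and missed the threshold (adjusted p = 0.0704). With each ligand it was negative, at -1.42 ± 0.27 (X10), -1.06 ± 0.27 (insulin), -0.78 ± 0.27 (IGF1) and -0.71 ± 0.27 (glargine). With library size as a covariate the log2 fold change was -0.88 (adjusted p = 0.28). Without the IGF1 tumors it was -1.06 (adjusted p = 0.0157). With 1 tumor left out the adjusted p of Id3 (limma) was 0.011 to 0.22. It was under 0.05 without X10_105, IGF1_145, IGF1_158, Untreated_186 or Untreated_189.

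The other Id genes did not share this pattern throughout. Id1 had 14.2 to 57.7 RPKM (median 26.4) with vehicle and 5.72 to 36.6 RPKM (median 17.8) with the ligands, and a log2 fold change of -0.68 ± 0.22 (adjusted p = 0.314). Id2 had medians of 24.0 RPKM with vehicle and 26.7 RPKM with the ligands, and a log2 fold change of 0.18 ± 0.14 (95% confidence interval -0.11 to 0.47). Id4 was low, with medians of 0.569 and 0.807 RPKM, and a log2 fold change of -0.18 ± 0.35 (-0.89 to 0.52).

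**Figure D3:**
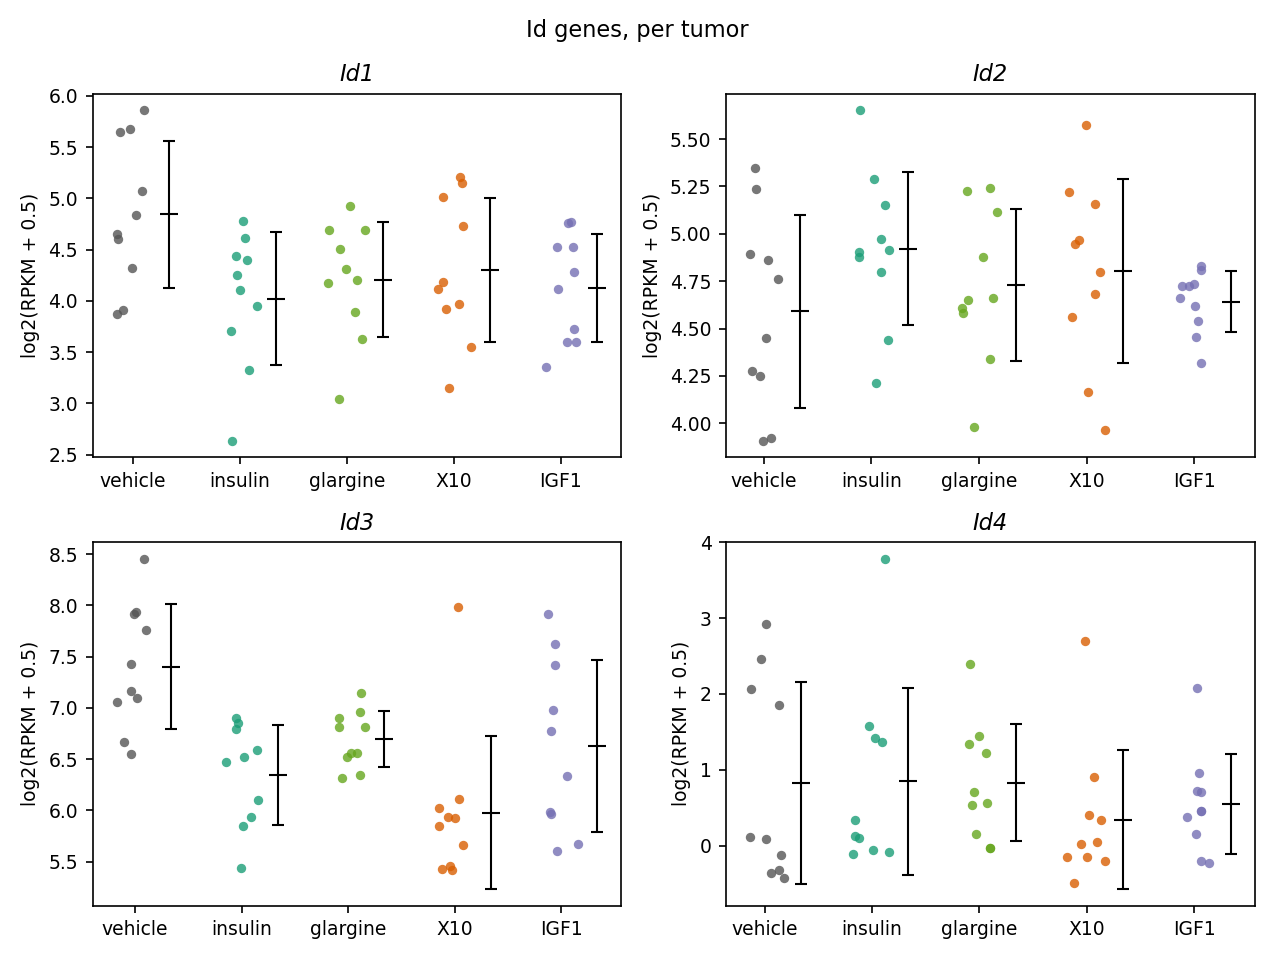
Expression of the 4 Id genes, as log2(RPKM + 0.5) on the y axis, in each tumor (points) of the 5 groups (x axis), with the mean and SD of each group of 10 tumors. For Id3, 23 of 40 ligand tumors lie below the lowest vehicle tumor, and for Id1 11 of 40 (a count whose share over all genes was not determined), while the Id2 points overlap throughout.

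Of 23 BMP signaling genes tested, 3 were lower at an unadjusted p under 0.05, 0 were higher and the median was -0.0062, where 5.3% of all genes were lower and 3.97% higher at that p. The 3 are Smad6, Bmp6 and Smad7, of which Smad6 and Smad7, inhibitory SMADs that BMP and TGF-beta signals induce as feedback, had -0.81 ± 0.24 (adjusted p = 0.277) and -0.38 ± 0.14 (adjusted p = 0.366). Smad6 was at 3.00 to 32.5 RPKM (median 12.7) with vehicle and at 3.19 to 37.8 RPKM (median 6.50) with the ligands, the highest being glargine_69. Bmp6, a ligand of the pathway, was low, with medians of 0.691 RPKM with vehicle and 0.354 RPKM with the ligands, and had -0.80 ± 0.26 (adjusted p = 0.314). It was at 14.9 RPKM in Untreated_197, without which the log2 fold change was -0.43, and its mean passed the filter on low values only through the vehicle tumors (2.39 RPKM, against 0.438 RPKM with the ligands). Bmp6 and Smad7 are named after their values were seen. In the TGF-beta list 1 of 17 genes was lower at an unadjusted p under 0.05, the ligand gene Tgfb2 with -0.74 ± 0.30 (adjusted p = 0.407), and the median was 0.048. Since Id1, Id3 and Smad6 are strongly expressed in endothelium, the endothelial markers stand beside them: 0 of 14 reached an unadjusted p under 0.05, their median was 0.10 (0.019 without Untreated_161), and their summed level was 193 to 429 RPKM with vehicle and 193 to 539 RPKM with the ligands. With the endothelial score as a covariate Id3 had -1.02 (adjusted p = 0.0713). Whether endothelium had a part in the values of Id1, Id3 and Smad6 was not tested beyond this fit.

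F13a1 (ENSMUSG00000039109, chr13:36867178-37050244, minus strand) had a mean above vehicle with each ligand, none of which passed the adjusted test on its own (adjusted p of 0.12 to 0.53). Its RPKM was 2.87, 9.57 and 42.0 (lowest, median and highest) with vehicle, 9.29, 31.8 and 87.7 with insulin, 12.4, 34.9 and 68.9 with glargine, 9.62, 23.8 and 58.6 with X10, and 11.4, 39.0 and 137 with IGF1. No ligand tumor was as low as the lowest vehicle tumor, 15 of 40 were above the highest one, and the ranges overlapped in each group. How many of all genes reach a count of 15 was not determined. The mean was 40.1 ± 26.2 RPKM (SD, n = 40) with the ligands and 13.5 ± 12.4 RPKM (SD, n = 10) with vehicle, and the log2 fold change was 1.73 ± 0.33 (SE, adjusted p = 0.0199). By ligand it lay between 1.34 ± 0.42 for X10 and 2.03 ± 0.42 for IGF1, with no difference among ligands past the threshold (adjusted p = 0.786). With library size as a covariate it was 1.62 (adjusted p = 0.136), and it also missed the threshold without the insulin, the glargine or the IGF1 tumors, at 1.63 to 1.72.

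Most macrophage markers lay on the same side of vehicle as F13a1. Of the 10 leukocyte and macrophage markers, 7 were higher at an unadjusted p under 0.05 (F13a1 included), against 3.97% of all genes, and their median was 0.48. Their summed level was 865 to 3328 RPKM (median 1521) with vehicle and 910 to 4570 RPKM (median 2203) with the ligands, and no marker was at 0 in all tumors. Ptprc, the pan-leukocyte marker CD45, had 0.36 ± 0.21 (adjusted p = 0.633). With the mean score of this list as a covariate, which holds F13a1 and Mrc1 themselves, the log2 fold change of F13a1 was 0.94 (adjusted p = 0.364) and 0 genes passed in the pooled comparison. Among the genes with small p-values that missed the threshold, and named after their values were seen, were genes of tissue-resident macrophages. Mrc1, the mannose receptor CD206 and a member of the list above, was at 4.60 to 77.3 RPKM (median 34.8) with vehicle and 15.2 to 193 RPKM (median 82.7) with the ligands, and 22 of 40 ligand tumors were above the highest vehicle tumor, which held for 20 or more tumors in 0.317% of genes. Its log2 fold change was 1.28 ± 0.31 (adjusted p = 0.138). Folr2, a folate receptor of resident macrophages, had medians of 12.4 and 32.2 RPKM and 1.07 ± 0.25 (adjusted p = 0.111). Fcna, a ficolin, had 1.16 ± 0.27 (adjusted p = 0.138), and Vsig4, a complement receptor, had 1.47 ± 0.41 (adjusted p = 0.222).

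A list of 16 resident macrophage genes and one of 12 genes of inflammatory monocytes and macrophages were set up after these values were seen, so their counts are a description only. All 16 resident genes were positive (0.29 to 1.47, median 0.67) and 11 had an unadjusted p under 0.05, where 3.97% of all genes were higher at that p and 8681 of 16733 were positive. Of the inflammatory genes 4 were positive and 8 negative, with a median of -0.20 (-0.077 without Untreated_174), and 1 was higher at that p. The difference between the lists was not tested. The summed level of the resident genes was 163 to 2074 RPKM (median 849) with vehicle and 498 to 3210 RPKM (median 1280) with the ligands. Of the inflammatory genes, Ccr2, the chemokine receptor of blood monocytes, had the smallest p, with 0.91 ± 0.42 (adjusted p = 0.474). The 6 neutrophil markers tested were all negative (median -0.83, and -0.49 without Untreated_174), with 1 of 6 at an unadjusted p under 0.05, against 5.3% of all genes, with 35.2 to 2716 RPKM in sum (median 251) with vehicle and 18.1 to 909 RPKM (median 104) with the ligands. Cxcr2, the receptor that draws neutrophils, had -0.86 ± 0.41 (adjusted p = 0.508), and S100a8, a neutrophil calcium-binding protein, -1.20 ± 0.63 (adjusted p = 0.562).

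**Figure D4:**
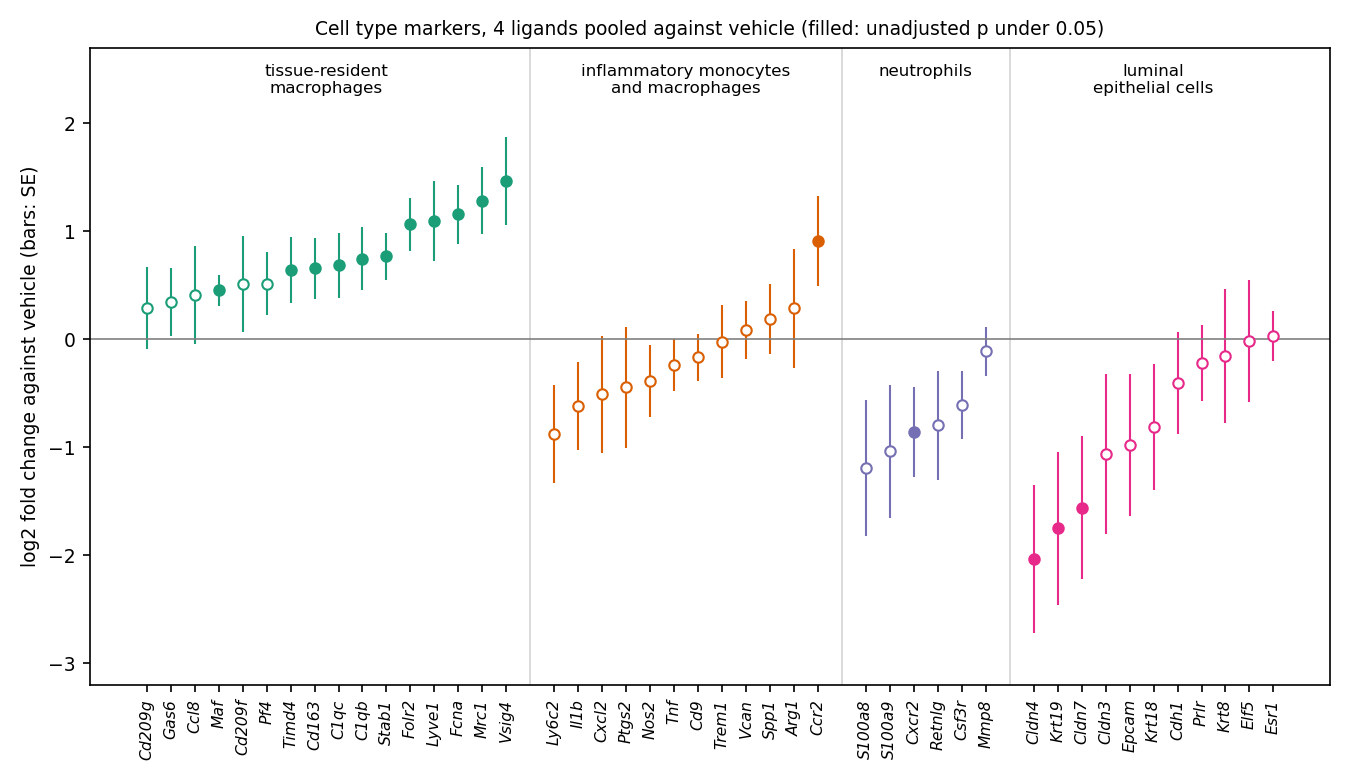
Log2 fold change of the 4 ligands pooled against vehicle (y axis, bars are the SE) of the tested genes (x axis) of 4 marker lists, filled where the unadjusted p was under 0.05. The resident macrophage genes are all above 0 (0.29 to 1.47), the neutrophil genes all below 0, and all luminal genes but 1 are below 0, while the inflammatory genes lie on both sides. Both macrophage lists shown were chosen after values were seen.

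Mir3473c (ENSMUSG00000093003) lies at chr1:191998554-191998634 on the minus strand, within the gene Traf5 on the same strand. Its mature microRNA in RefSeq, shown to tell it from other Mir3473 genes and with the seed (bases 2 to 8) in capitals, is given on the next line.
mmu-miR-3473c: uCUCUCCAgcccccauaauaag
The libraries were made from Poly-A RNA and do not measure the mature microRNA, so the value is that of reads over the 81 bases of the hairpin. It rests on few reads: 8 in all over the vehicle tumors, 6 of which had 0, and 36 with insulin, 34 with glargine, 26 with X10 and 59 with IGF1, of which 3 of 40 tumors had 0. The highest tumor, IGF1_132, had 15 reads. The RPKM was 0 to 1.24 (median 0) with vehicle and 0 to 4.57 (median 1.05) with the ligands, and the log2 fold change was 1.19 ± 0.23 (SE, adjusted p = 0.0199). With a mean of 0.222 RPKM with vehicle and 1.19 RPKM with the ligands, the gene passed the filter on low values only through the ligand tumors, so its call is no independent support. The fold change depended on the pseudocount, with 2.32 for 0.1 and 0.79 (adjusted p = 0.0566) for 1. By ligand it was 1.16 ± 0.29 for insulin and for glargine, 0.78 ± 0.29 for X10 and 1.65 ± 0.29 for IGF1. The call ended without the insulin, the glargine or the IGF1 tumors, at 1.03 to 1.20.

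Of the hairpin, 65 bases overlap an exon of a Traf5 transcript that retains an intron, so that its reads cannot be told apart from those of Traf5, an adaptor of TNF receptors. Traf5, named after its values were seen, was at 2.87 to 19.9 RPKM (median 7.33) with vehicle and 5.59 to 23.7 RPKM (median 11.6) with the ligands. Its log2 fold change was 0.68 ± 0.17 (adjusted p = 0.176), with 0.64 to 0.78 for the single ligands.

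**Figure D5:**
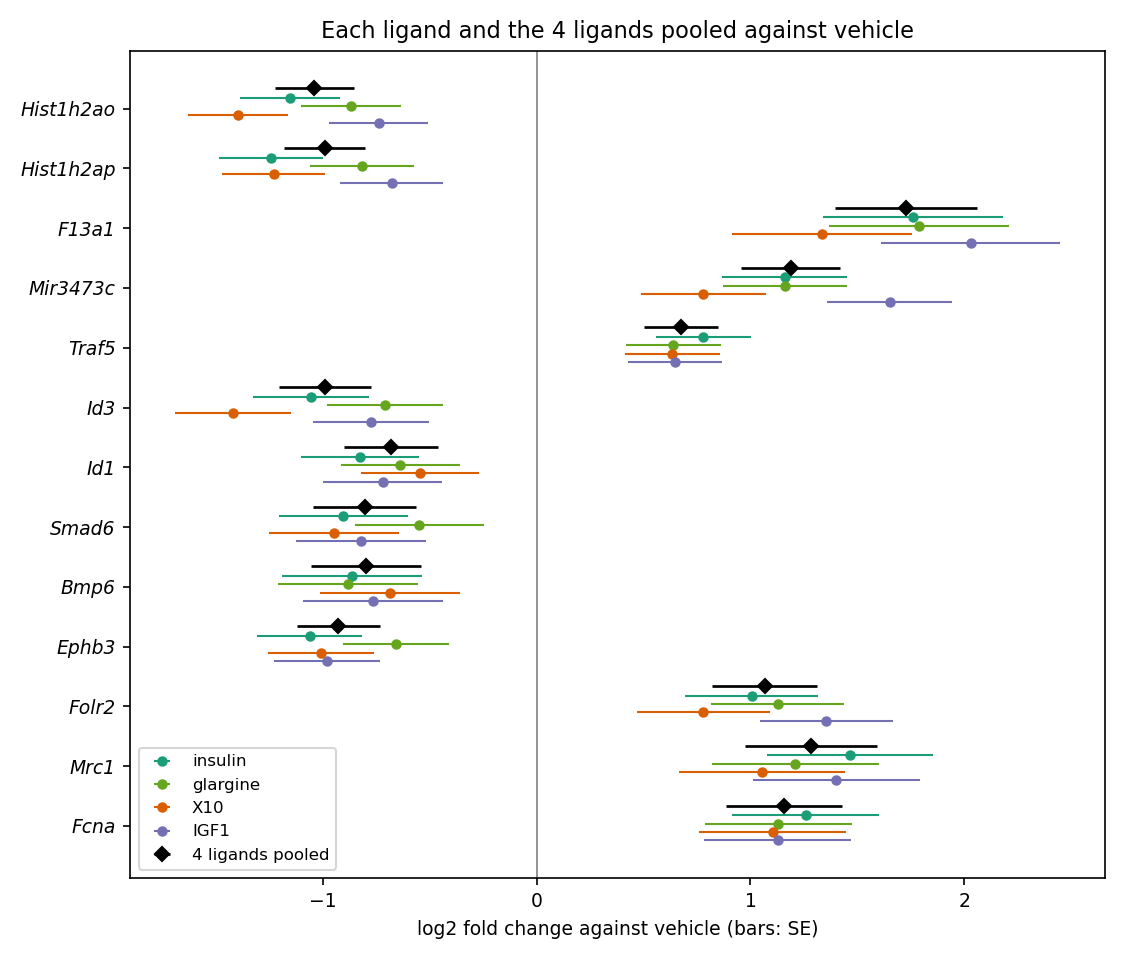
Log2 fold change against vehicle (x axis, bars are the SE) of 13 genes (y axis) for the 4 ligands pooled (diamonds) and for each ligand (circles). For each of these genes all 5 points are on 1 side of 0; the 4 ligand comparisons share the same 10 vehicle tumors.

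Some further genes with small p-values, picked and named after their values were seen and not the next ones in order, were lower. Ephb3, an ephrin receptor of epithelia, was at 3.99 to 27.8 RPKM (median 6.47) with vehicle and 2.22 to 9.53 RPKM (median 4.14) with the ligands, with -0.93 ± 0.20 (adjusted p = 0.0602). Erbb2, the HER2 receptor, had 7.05 to 34.1 RPKM (median 9.26) with vehicle and 3.57 to 15.7 RPKM (median 7.11) with the ligands, and -0.70 ± 0.19 (adjusted p = 0.222). Wnt7a, a WNT ligand, and Krt7, a keratin of simple epithelia, had -1.99 ± 0.49 (adjusted p = 0.141) and -3.16 ± 0.88 (adjusted p = 0.222), each with high values in some tumors. Krt7 ranged from 2.93 to 3810 RPKM (median 46.1) with vehicle and from 0.42 to 1310 RPKM (median 5.16) with the ligands, where X10 held the highest tumors. Wnt7a ranged from 0.276 to 92.0 RPKM (median 3.98) with vehicle and from 0 to 13.2 RPKM (median 0.483) with the ligands. The gene named Naa38 in the table (ENSMUSG00000044155, Lsm8 in GENCODE M21) had 28.6 to 2459 RPKM (median 211) with vehicle and 14.0 to 625 RPKM (median 25.7) with the ligands, and -2.39 ± 0.58 (adjusted p = 0.138). Of the genes annotated as pseudogenes, the smallest p-values were those of Rpl31-ps4 (-0.58 ± 0.13, adjusted p = 0.0725) and Gm8666 (-0.55 ± 0.14, adjusted p = 0.138) among the lower ones, and Gm13567 (0.54 ± 0.14, adjusted p = 0.166) and Gm15931 (0.59 ± 0.16, adjusted p = 0.207) among the higher ones. Reads of processed pseudogenes are hard to tell from those of their parent genes, and Rpl31 itself had -0.29 ± 0.11 (adjusted p = 0.396).

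In the insulin and IGF pathway itself no gene was called. Of 16 receptors, ligands and adaptors tested, 2 were lower at an unadjusted p under 0.05 and 0 higher, against 5.3% and 3.97% of all genes, with a median of -0.034. These were Irs1, the adaptor that links both receptors to PI3K, with -0.54 ± 0.23 (adjusted p = 0.419), and Igf2r, which clears IGF2, with -0.40 ± 0.17 (adjusted p = 0.427). Igf1r had medians of 5.66 RPKM with vehicle and 5.68 RPKM with the ligands, and Insr of 7.88 and 8.61 RPKM. Of 9 IGF and IGF2 mRNA binding protein genes, 2 were lower (median -0.36), and Igf2bp1, which binds IGF2 mRNA, had -2.16 ± 0.73 (adjusted p = 0.329), with medians of 28.6 RPKM with vehicle and 1.70 RPKM with the ligands. In the PI3K, AKT and mTOR list 1 of 22 genes was higher and 1 lower (median 0.055), with Tsc2, an inhibitor of mTOR, at 0.20 ± 0.09 (adjusted p = 0.44). None of 19 FOXO genes reached an unadjusted p under 0.05 (median 0.015; Sesn1, a stress sensor, at 0.37 ± 0.20), 1 of 20 ERK feedback genes was higher (median 0.066; the ETS factor Etv1 at 0.96 ± 0.41, adjusted p = 0.44), and 2 of 25 immediate early genes were lower (median -0.059; Myc at -0.26 ± 0.11, adjusted p = 0.44).

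No gene of the metabolic lists was called. None of 20 glycolysis genes (median 0.038) and none of 21 fatty acid and cholesterol synthesis genes (median -0.0082) reached an unadjusted p under 0.05, with Gapdh at -0.35 ± 0.19 and the elongase Elovl6 at 0.44 ± 0.23. Of 77 oxidative phosphorylation genes 4 were lower and 54 negative (median -0.048), with Ndufa4, a respiratory chain subunit, at -0.46 ± 0.17 (adjusted p = 0.369), and of 81 cytosolic ribosomal protein genes 3 were lower and 55 negative (median -0.064), where 5.3% of all genes were lower. Of the 13 mitochondrially encoded genes 12 were positive, with a median of 0.089, and mt-Nd5 had 0.22 ± 0.23. Of 12 Notch genes 1 was lower (median 0.00021), Hes1, a repressor that Notch induces, with -0.35 ± 0.14 (adjusted p = 0.417). With 1 tumor left out the glycolysis (-0.052 to 0.096), fatty acid and cholesterol synthesis (-0.051 to 0.085) and Notch medians (-0.17 to 0.057) took either sign. So did those of the oxidative phosphorylation (-0.080 to 0.0025) and mitochondrially encoded genes (-0.025 to 0.17).

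Among the remaining cell types, most epithelial markers had a negative and most mesenchymal markers a positive log2 fold change, and none was called. Of all genes 5.3% were lower and 3.97% higher at an unadjusted p under 0.05, beside which the counts of these short lists stand. Of 11 luminal markers 10 were negative and 3 had an unadjusted p under 0.05 (median -0.82, and -1.29 to -0.39 with 1 tumor left out, the ends without Untreated_197 and Untreated_174), with Cldn4, a tight junction protein, at -2.04 ± 0.69 (adjusted p = 0.329), and a summed level of 15.8 to 5056 RPKM (median 352) with vehicle and 25.5 to 1494 RPKM (median 264) with the ligands. Krt8 had -0.16 ± 0.62, a sign that turned with array weights, with the luminal score (which holds Krt8 itself) or the leukocyte and macrophage score as a covariate, and without the IGF1 tumors. Of 7 basal markers 2 were lower (median -0.19, and -0.43 without X10_105 or -0.08 without Untreated_174), with the basal keratins Krt14 at -2.07 ± 0.81 (adjusted p = 0.402) and Krt5 at -0.19 ± 0.58. Of 10 mesenchymal markers 2 were higher (median 0.20, and 0.09 without Untreated_161), Zeb2, a factor that drives EMT, with 0.58 ± 0.18 (adjusted p = 0.312), and Vim with 0.38 ± 0.17 (adjusted p = 0.445). In 9 fibroblast markers Dcn, a matrix proteoglycan, was the 1 higher gene with 0.78 ± 0.38 (adjusted p = 0.511), and Col1a1 had -0.31 ± 0.33 (list median 0.20, and -0.093 without Untreated_161). Of 7 pericyte markers 2 were higher (median 0.27, and 0.049 without Untreated_161), with Higd1b at 0.46 ± 0.20 (adjusted p = 0.44) and Rgs5 at 0.36 ± 0.27, and Pecam1, the endothelial adhesion molecule CD31, had 0.20 ± 0.12. The part of these markers in the differences above was not tested beyond the fits with a marker score.

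No gene of the other lists reached an unadjusted p under 0.05. The 8 milk genes had a median of 0.74 (casein genes Csn3 at 1.09 ± 0.70 and Csn1s1 at 0.86 ± 0.79), the 10 T and NK cell markers of 0.16 (the NK receptor gene Ncr1 at 0.52 ± 0.32, the T cell receptor component Cd3e at 0.18 ± 0.40) and the 7 B and plasma cell markers of 0.061 (Pax5, a B cell transcription factor, at 0.25 ± 0.33). With 1 tumor left out the medians of the T and NK cell list (-0.12 to 0.31) and of the B and plasma cell list (-0.11 to 0.34) took either sign, the ends being without Untreated_161 or X10_105 and without Untreated_186. The 7 adipocyte markers had a median of -0.12 (Fabp4 at 0.31 ± 0.38, Adipoq at -0.12 ± 0.64), the 8 muscle markers of 0.24 (Myh1 at 0.88 ± 0.86, Ckm at 0.58 ± 1.25) and the 6 red blood cell markers of -0.22 (Hba-a1 at -0.30 ± 0.41). These medians took either sign too, at -0.29 to 0.15 for adipocytes (without Untreated_161 and Untreated_189), -0.094 to 0.87 for muscle (without Untreated_182 and Untreated_186) and -0.46 to 0.0074 for red blood cells (without Untreated_186 and Untreated_195).

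Each ligand was finally set against vehicle on its own, with the same 10 vehicle tumors in each comparison. A gene was tested for change with every ligand by the largest of its 4 p-values, given the same direction in all 4. By this test 0 genes passed after adjustment, and 94 did at an unadjusted p under 0.05, of which 41 were higher (0.245%) and 53 lower (0.317%). Hist1h2ao, Hist1h2ap, F13a1, Mir3473c, Id3, Traf5, Ephb3, Erbb2, Folr2, Mrc1, Fcna, Vsig4, Bmp6 and Naa38 were among the 94, while Id1 and Smad6 were not (largest p-values of 0.0543 for X10 and 0.0768 for glargine). Most of these genes were named for their values in the pooled comparison of the same tumors, so their place among the 94 is no separate support. Mir3473c passed the filter on low values only through the ligand tumors, and Bmp6 only through the vehicle tumors. With insulin and with glargine alone 0 genes differed (0% each; 1865 and 1043 at an unadjusted p under 0.05 with limma). With X10 11 genes differed (0.0657%), all lower, Id3, Hist1h2ao and Hist1h2ap among them, and with IGF1 1 gene (0.00598%), Mir3473c. The X10 count was 4 with pseudogenes left out, 2 with the processed pseudogene share and 1 with library size as a covariate. With 1 tumor left out the X10 count was 1 to 21. Among the 4 ligands 27 genes differed (0.161%), 21 of them annotated as pseudogenes, as were 12.4% of the genes tested, and 0 of them called in the pooled comparison. Processed pseudogenes held 2.52 to 4.06% of RPKM in the tumors from X10_111 to IGF1_128 and 4.09 to 7.28% in the others. With this share as a covariate 2 genes differed among the ligands. The part of this run of tumors in the differences was not tested beyond this fit.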

How the data were processed

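The authors sequenced Poly-A selected RNA of 50 tumors on the Ion Proton, aligned reads to GRCm38 with Tophat2 2.0.10 and Bowtie2, counted them per gene with HTSeq 0.6.1 and deposited RPKM values. These are not counts. Within a gene the deposited RPKM values are whole multiples of 1 step, which gave the reads of 16607 tested genes (99.2%) and the library sizes. The data were tested with limma 3.58.1 (R 4.3.3) on log2(RPKM + 0.5), with 5 groups in the fit, an intensity trend, the mean of the 4 ligands minus vehicle as the contrast, and Benjamini-Hochberg adjustment over 16733 genes. The script was tested on simulated data. The authors' DESeq2 1.2.10 analysis was not repeated. Gene types and coordinates are from GENCODE M21, which holds 16551 of the tested genes.

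The text names the called genes, the Id genes, the gene with the smallest p and the first marker of each list (1 is not reported here), the 2 pseudogenes with the smallest p in each direction, and others said to be named after their values were seen, as were Hist1h2an, Hist1h2ag, Hist1h2bc, Igf2r, Igf1r and Insr. The members and lists were chosen with earlier results of these data known. A marker score is the mean z-score of a list's genes in a tumor. Alternatives were other pseudocounts, filters, scalings, weights and covariates, and leaving out each ligand and each tumor. Python 3.11.15 with scipy 1.17.1 ran the permutation test.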

Additional observations from a re-analysis of the deposited data

Results flagged for a closer look

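A tumor stood apart from the other 9 of its group, its gap to the next tumor divided by the group's range, on the log2 scale for genes, being above Dixon's 95% critical value, in 37 of 350 groups tested (10.6%), where chance gives about 1 in 20. Among the called and Id genes these were Id3 in X10_105 (ratio 0.732, 252 RPKM against 68.5 in the next tumor), Mir3473c in insulin_37 (0.474, no read) and IGF1_132 (0.474, 4.57 RPKM), and Id4 in insulin_37 (0.567), X10_105 (0.560) and IGF1_124 (0.484), all but insulin_37 for Mir3473c being high values. Smad6 was high in glargine_69 (0.593) and Traf5 low in glargine_47 (0.592).

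IGF1_160 was low for the macrophage and leukocyte genes Mrc1 (0.4998), Ptprc (0.558) and Ccr2 (0.484), and for Mki67 (0.573) and mt-Nd5 (0.580), and high for Rpl31 (0.527). X10_105 was high for Krt5 (0.767, 1036 against 2.67 RPKM), and for the B cell gene Pax5 (0.902), and low for Vim (0.588). Pax5 was also high in Untreated_186 (0.576), insulin_8 (0.785) and glargine_53 (0.579).

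Further high values were H3f3b in X10_95 (0.550), Cdt1 in insulin_18 (0.617), Igf2bp1 in insulin_8 (0.518), Myc in Untreated_161 (0.637), Pecam1 in insulin_8 (0.503), and Krt5 (0.524) and Krt7 (0.537) in IGF1_145. Further low values were Gm13567 (0.478) and Hist1h2ag (0.513) in glargine_53, Hes1 in glargine_78 (0.475), Zeb2 in Untreated_174 (0.614), Pecam1 in Untreated_161 (0.476), Vim in IGF1_158 (0.520), and Col1a1 in insulin_37 (0.523) and glargine_69 (0.511). In library size the largest insulin tumor (0.558) and the largest IGF1 tumor (0.505) stood apart. By limma's F test 27 genes differed among the 4 ligands, 21 of them pseudogenes. The number was 2 with the processed pseudogene share as a covariate and 0 with pseudogenes left out.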

How the results depend on the processing

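Of 24 alternatives, 11 called the same 4 genes in the pooled comparison (a pseudocount of 0.1, all nonzero genes, quantile, upper quartile and TMM scaling, no or a robust trend, 2 groups in the fit, the endothelial score, the muscle and adipocyte scores, and pseudogenes left out), voom added Ephb3 (adjusted p = 0.0416) and the pseudogene share added Rpl31-ps4. The number of higher genes was 1 with a pseudocount of 1, a mean RPKM of at least 5, library size or the luminal score as a covariate, and 0 with array weights, the leukocyte and macrophage score, library size with the luminal score (added after the data were seen), and without the insulin, the glargine or the IGF1 tumors. The number of lower genes was 4 with array weights and without the IGF1 tumors (Id3 at adjusted p of 0.0375 and 0.0157), and 0 with the leukocyte and macrophage score and without the insulin, the glargine or the X10 tumors. Called genes with the means of all ligands in the fit on 1 side numbered 2 with library size and luminal score and without the X10 tumors, and 0 with the leukocyte and macrophage score and without the insulin or the glargine tumors. No gene passed for every ligand in the 23 alternatives that hold this test. The fit with 2 groups does not hold it, and a fit without a ligand tested only the ligands left in. The cause of these moves was not tested.

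The genes differing among ligands (27) were 0 with all nonzero genes, with pseudogenes left out and without the insulin or the X10 tumors, 1 with TMM and without the glargine tumors, 2 with the pseudogene share, 4 with quantile scaling, 7 with voom, 10 with library size, 16 with library size and luminal score, 44 with the leukocyte and macrophage score, 451 without the IGF1 tumors and 1105 with array weights. For insulin (0) there was 1 gene with array weights and with the luminal score, 3 with library size or the pseudogene share, and 2 with a mean RPKM of at least 5, the 3 scalings, library size and luminal score, and without the IGF1 tumors. For glargine (0) there were 2 with the pseudogene share. For X10 (11) there were 1 with library size, with the leukocyte and macrophage score and without the insulin or the glargine tumors, 2 with the pseudogene share or library size and luminal score, 4 with pseudogenes left out, 19 with array weights, 24 with all nonzero genes and 31 without the IGF1 tumors. For IGF1 (1) there were 2 with the pseudogene share, and 0 with a mean RPKM of at least 5, array weights, the luminal score, the leukocyte and macrophage score, and library size and luminal score.

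Leaving out 1 of the 50 tumors at a time gave 0 to 6 higher and 0 to 6 lower genes, 0 to 12 with all 4 means on 1 side, 0 to 0 for every ligand, 0 to 163 among ligands, 0 to 3 for insulin, 0 to 1 for glargine, 1 to 21 for X10 and 0 to 3 for IGF1. The pooled comparison called 7 genes without X10_105, 9 without IGF1_160 or Untreated_195 and 10 without Untreated_189, and the log2 fold change of Id3 was -1.09 to -0.87. With 1 tumor left out, 5 genes without a call took either sign: Krt8 (-0.75 to 0.23), Krt5 (-0.43 to 0.018), Cd3e (-0.016 to 0.39), Adipoq (-0.40 to 0.25) and Id4 (-0.32 to 0.048).

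Of 1636 values of 69 named genes, 1585 kept their direction and side of the threshold, and 22 of 9 genes, none of them called, reversed. Most of the named genes were not called, so keeping their side says little about the calls. Of the 4 called genes, Hist1h2ao and Hist1h2ap each stayed called in 20 of 24 alternatives, F13a1 in 17 of 24 and Mir3473c in 15 of 23. Krt8 was 0.40 with array weights, 0.44 with the luminal score, 0.052 with the leukocyte and macrophage score, 0.32 with library size and luminal score and 0.11 without the IGF1 tumors, and Krt5 was 0.059 with library size and 0.38, 0.071, 0.95 and 0.0030 in the latter 4 settings. Cd3e was -0.027 with array weights, -0.0032 with the endothelial score and -0.42 with the leukocyte and macrophage score, which also gave Sesn1 -0.15, Ptprc -0.13 and Ccr2 -0.17. The luminal score holds Krt8 itself, and the leukocyte and macrophage score holds Ptprc itself. Ckm was -0.11 with array weights, Id4 0.17 with library size and luminal score, and Adipoq 0.030 with voom and with library size and luminal score, 0.065 without the insulin and 0.12 without the IGF1 tumors. No paired analysis was possible because the groups share no replicate number. Depth limits Mir3473c, which rests on 0 to 15 reads per tumor.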

Other observations

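Naa38 (chr6:18848579-18855751, GRCm38), picked after its values were seen, was over 100 RPKM in 6 of 10 vehicle tumors and in 7 of 40 ligand tumors.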
